A study of Mus musculus with 16 samples.

Results

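The *Dlx* genes encode homeodomain transcription factors related to the *Drosophila* gene *Distal-less*, and 6 of them lie in the mouse genome as the pairs *Dlx1*-*Dlx2*, *Dlx3*-*Dlx4* and *Dlx5*-*Dlx6*. *Dlx6os1*, also known as *Evf2*, is a long noncoding RNA gene on the strand opposite to *Dlx6*. Together they are 7 of the 26411 genes in the count data, chosen by symbol, and all 7 were among the 15679 genes tested. Sequencing of messenger RNA covered 16 whole E9.5 mouse embryos, 4 of each of 4 genotypes. Wild-type embryos were Kat6a+/+Kat6b+/+. Kat6a-/-Kat6b+/+ embryos, here KO, lacked KAT6A (MOZ), a histone acetyltransferase. Kat6a+/+Tg(Kat6b) embryos, here Tg, had both *Kat6a* alleles and a bacterial artificial chromosome transgene that carries the related gene *Kat6b*, and Kat6a-/-Tg(Kat6b) embryos, here KO/Tg, had the transgene and no functional *Kat6a*. The transgene comes from 1 founder line and the embryos are FVB x BALB/c hybrids. Each genotype had 2 female and 2 male embryos, and each embryo was a separate animal.

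The litters limit the comparisons. Litters 801 and 803 each held 1 wild-type and 2 KO embryos. Litters 2597 and 2598 each held 1 wild-type embryo, with 3 and 1 Tg embryos. The 4 KO/Tg embryos came from litters 483 and 498, which held no other genotype, so litter and genotype cannot be told apart for them. In wild-type embryos sex goes with litter, as the males came from litters 801 and 803 and the females from litters 2597 and 2598. In KO embryos it does too, with both females from litter 801 and both males from litter 803. Ratios within litter 801 thus set KO females against a wild-type male, and wild-type and KO females share no litter.

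DLX proteins act in a nested pattern along the pharyngeal arches. *Dlx1* and *Dlx2* are used in the whole arch, *Dlx5* and *Dlx6* in its lower part downstream of endothelin signalling, and *Dlx3* and *Dlx4* toward its tip. *Dlx1*, *Dlx2*, *Dlx5* and *Dlx6* are also known for their place in the making of GABAergic neurons of the ventral forebrain, *Dlx5* for the otic vesicle, *Dlx3* for ectoderm and placenta, and *Dlx5* and *Dlx6* for the ectodermal ridge of the limb bud. *Dlx6os1* reaches into the stretch between *Dlx5* and *Dlx6*, which holds enhancers, and its RNA is known to bind DLX proteins in the forebrain.

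In the GENCODE annotation of GRCm39, the genes of each pair face each other with their 3′ ends. *Dlx1* (Entrez Gene 13390) lies on chromosome 2 from 71358457 to 71364325 on the plus strand, 9426 bases from *Dlx2* (13392; 71373752 to 71377102, minus strand). *Dlx3* (13393) lies on chromosome 11 from 95010937 to 95016122 on the plus strand, 15150 bases from *Dlx4* (13394; 95031273 to 95037089, minus strand). *Dlx6* (13396) lies on chromosome 6 from 6862989 to 6868568 on the plus strand, 9235 bases from *Dlx5* (13395; 6877804 to 6882092, minus strand). *Dlx6os1* (320038) spans 6749740 to 6871632 of chromosome 6 on the minus strand, so that *Dlx6* lies within it. The library kit does not mark strand, and reads from a gene and an overlapping antisense gene cannot be told apart. *Dlx2*, *Dlx3* and *Dlx5* share no exon base with another annotated gene. Exons of another gene cover 60.2% of the exon bases of *Dlx1* (*Dlx1as*), 6.58% of *Dlx6os1*, 3.82% of *Dlx6* (*Dlx6os2*) and 2.36% of *Dlx4* (*Dlx4os*). These shares are of GENCODE exons, which need not be the exons counted. *Dlx1* has 5396 exon bases there and *Dlx6os1* 8069, while the lengths given with the counts are 2981 and 4548 bases.

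RefSeq start sites were available for *Dlx1*, *Dlx2* and *Dlx6os1*. The 250 bases before a start site are shown for both starts of *Dlx6os1*, the gene with the largest difference among the 7, and for *Dlx2*, the called gene with the smallest. They are read 5′ to 3′ on the minus strand from the mouse build GRCm38.p6, which differs from the build of the gene positions above. Capitals mark TAATTA, the core motif of DLX and related homeodomain proteins, which is its own reverse complement.
Dlx6os1, start nearest to Dlx5, chr6:6869534-6869783: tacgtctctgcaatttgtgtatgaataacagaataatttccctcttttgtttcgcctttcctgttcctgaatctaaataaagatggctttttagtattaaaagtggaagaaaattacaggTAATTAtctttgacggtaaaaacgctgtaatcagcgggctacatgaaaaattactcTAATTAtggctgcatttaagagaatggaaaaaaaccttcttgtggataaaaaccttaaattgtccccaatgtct
Dlx6os1, second start, chr6:6861684-6861933: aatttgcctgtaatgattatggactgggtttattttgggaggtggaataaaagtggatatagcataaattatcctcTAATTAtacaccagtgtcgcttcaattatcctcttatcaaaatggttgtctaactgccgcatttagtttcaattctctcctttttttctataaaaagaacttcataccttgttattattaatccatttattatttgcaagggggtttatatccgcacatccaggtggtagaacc
Dlx2, chr2:71546755-71547004: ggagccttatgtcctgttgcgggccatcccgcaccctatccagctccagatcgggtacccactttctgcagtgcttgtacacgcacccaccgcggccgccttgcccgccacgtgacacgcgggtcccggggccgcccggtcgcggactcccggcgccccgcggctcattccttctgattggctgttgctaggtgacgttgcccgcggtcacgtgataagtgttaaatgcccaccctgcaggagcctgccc
The first window of *Dlx6os1* holds 2 copies of TAATTA and the second holds 1, while that of *Dlx2* holds 0. The motif stands in 4.84% of the 32851 windows of this length in the table, and 0.444% hold 2 or more. Both *Dlx6os1* windows are poor in G and C, with 33.2% and 34.0% against a median of 52.4% over all windows, and only 3.17% and 3.87% of windows have less. At *Dlx2* the share is 66.4%. The window of *Dlx1*, which is not shown, holds 0 copies of TAATTA and 68.0% G and C, although *Dlx1* differed more without KAT6A than *Dlx2*. Whether the windows relate to the size of the differences was not tested. A match of letters is a description of the window and not a measured binding site.

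Levels of the genes were compared in wild-type embryos as RPKM, the CPM per kilobase of listed gene length. CPM are counts scaled to library sizes of 1000000 after TMM adjustment. *Dlx2* was highest at 9.06 ± 0.766 RPKM (SD, n = 4), followed by *Dlx5* at 6.87 ± 0.798 RPKM. *Dlx3* was at 4.50 ± 0.441 RPKM and *Dlx6* at 3.97 ± 0.823 RPKM, and the values of these neighbours overlapped. *Dlx1* was at 2.41 ± 0.473 RPKM, *Dlx6os1* at 1.06 ± 0.240 RPKM and *Dlx4* at 0.328 ± 0.0242 RPKM. Every other pair of neighbours in this order was in the same order in all 4 embryos with no overlap of the values. The order rests on the listed lengths, which can differ from the GENCODE exon bases. For *Dlx5* these are 1410 and 2271 bases, for *Dlx6* 1071 and 2720, and for *Dlx3* 2609 and 2615. Whether the order holds with other lengths was not tested. Of all genes tested, 54.9% were below *Dlx2* and 8.65% below *Dlx4*, so that the *Dlx* genes were at middle to low levels in whole embryos. Since each gene is used in a small part of the embryo, fewer cells of a type and less RNA per cell cannot be told apart in these data.

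**Figure D1:**
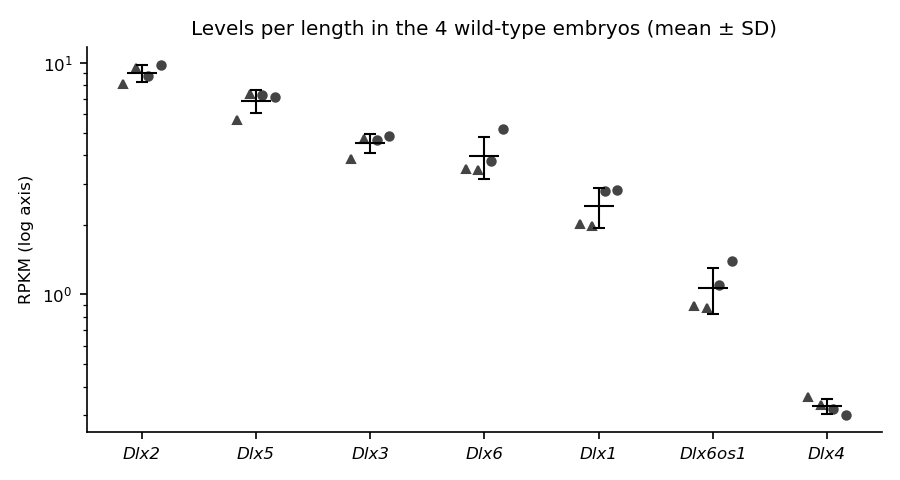
RPKM of each gene (log axis) in the 4 wild-type embryos, with circles for females, triangles for males and bars for the mean ± SD. *Dlx2* and *Dlx5* stand above the others, *Dlx3* and *Dlx6* overlap, and *Dlx4* lies lowest at 0.328 RPKM.

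Differences between genotypes were tested with edgeR over all genes, and FDR is the Benjamini-Hochberg adjusted p-value of its quasi-likelihood test. Values per embryo are CPM, and log2 fold changes are adjusted for 2 surrogate variables. The first question was which *Dlx* genes differ without KAT6A. In KO vs. wild-type embryos, 4 of the 7 genes were downregulated, *Dlx6os1*, *Dlx1*, *Dlx3* and *Dlx2*, and none was upregulated at an FDR under 0.05. Over all genes, 0.938% were called lower in this comparison. All 7 log2 fold changes were negative with a median of −0.38, against 0.00 over all genes. The drop of *Dlx6os1* held under each of the 28 alternative settings and that of *Dlx1* under 27, while *Dlx3* lost its call under 16 and *Dlx2* under 22. The values of 4 genes, *Dlx1*, *Dlx3*, *Dlx5* and *Dlx6os1*, did not overlap between these genotypes, as was the case in this direction for 4.01% of all genes.

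**Figure D2:**
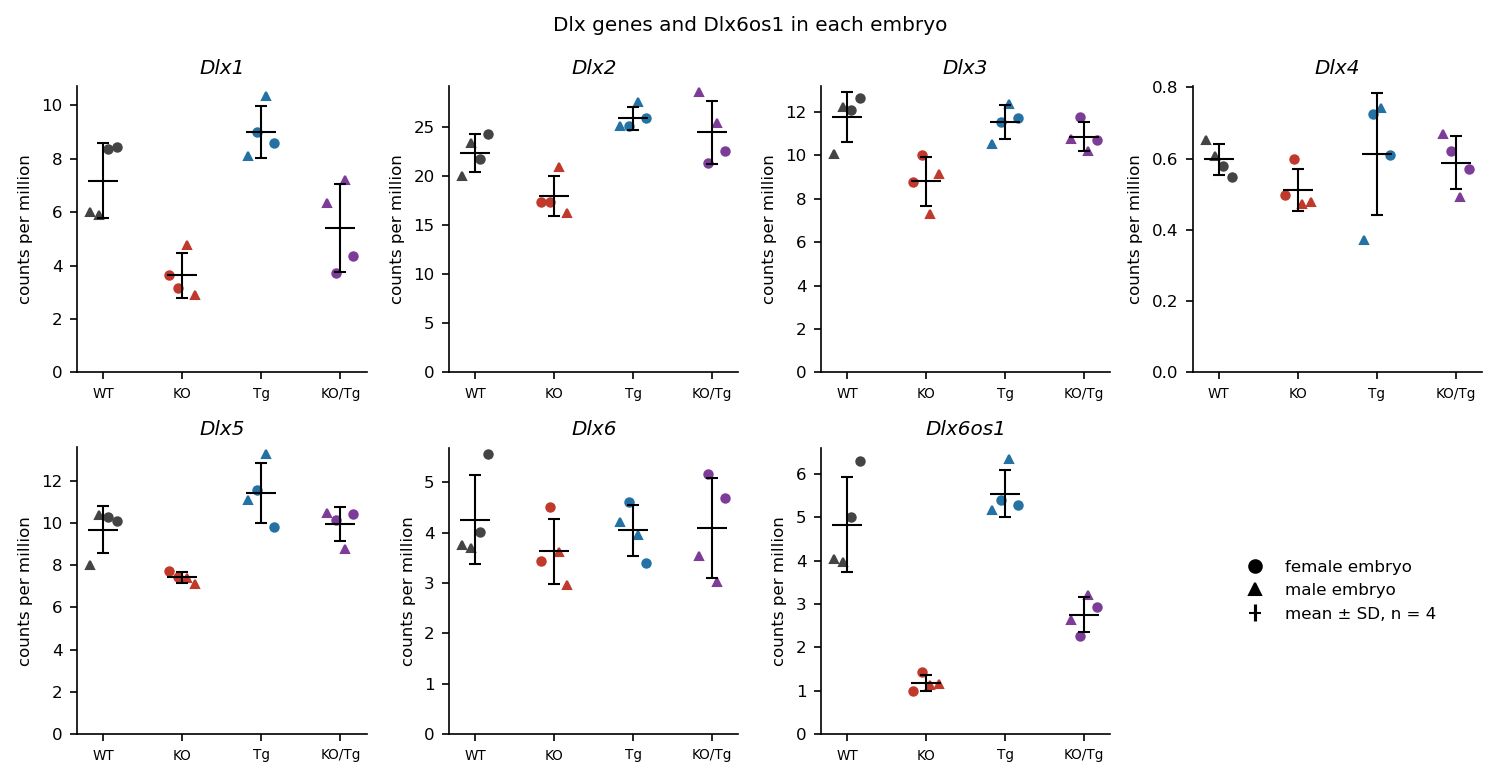
CPM of the 7 genes in each of the 16 embryos, by genotype, with circles for females, triangles for males and bars for the mean ± SD of 4 embryos. *Dlx6os1* lies between 0.996 and 1.43 CPM in the Kat6a-/- embryos without the transgene and between 2.27 and 3.21 CPM in those with it, below all wild-type embryos in both cases.

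*Dlx6os1* was at 4.05, 3.98, 5.00 and 6.32 CPM in wild-type embryos 1 to 4 and at 0.996, 1.43, 1.12 and 1.16 CPM in the KO embryos, from 18 to 55 counts. The highest KO embryo lay far below the lowest wild-type embryo. The mean fell to 24.3% of the wild-type mean, with a log2 fold change of −1.96 ± 0.162 (SE; FDR = 4.28e-07). *Dlx6os1* RNA was also lower in the littermates alone. In litter 801 the wild-type embryo had 4.05 CPM and the 2 KO embryos a mean of 1.21 CPM, a log2 ratio of −1.74. In litter 803 these values were 3.98 and 1.14 CPM, a log2 ratio of −1.80. When litter was fitted as a block in the 12 embryos from the 4 litters with a wild-type embryo, *Dlx6os1* was the 1 gene of the 7 that stayed past the threshold.

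*Dlx1* was at 6.01, 5.91, 8.35 and 8.44 CPM in wild-type embryos and at 3.65, 3.18, 4.79 and 2.90 CPM in KO embryos. The groups did not overlap, and the 2 wild-type males, of litters 801 and 803, were below the 2 wild-type females. Its log2 fold change was −0.98 ± 0.139 (SE; FDR = 0.000479). Within litters 801 and 803 the log2 ratios were −0.81 and −0.62, and with litter as a block the FDR was 0.200. Among females and among males the log2 ratios were −1.30 and −0.63. Because *Dlx1as* covers much of *Dlx1* in the GENCODE annotation, part of these counts could belong to either gene.

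*Dlx2*, the partner of *Dlx1*, differed less. It was at 20.02, 23.4, 21.7 and 24.3 CPM in wild-type embryos and at 17.4, 17.4, 20.9 and 16.3 CPM in KO embryos. Only KO embryo 3 reached into the wild-type range, above wild-type embryo 1. This gave a log2 fold change of −0.31 ± 0.0804 (FDR = 0.0474), with log2 ratios of −0.20 and −0.33 within the litters. Over the alternatives the FDR of *Dlx2* ranged from 0.0208 to 0.547, and leaving out any 1 of 12 embryos ended its call. It held without wild-type embryo 1, Tg embryo 1 or 3, or KO/Tg embryo 1.

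*Dlx3*, a gene of ectoderm and of the arch tip, was at 10.1, 12.2, 12.1 and 12.6 CPM in wild-type and at 8.74, 10.0, 7.27 and 9.13 CPM in KO embryos. The groups did not overlap, but the lowest wild-type and the highest KO embryo nearly met, and both came from litter 801. The fitted log2 fold change was −0.40 ± 0.0954 (FDR = 0.0321). The log2 ratio was −0.57 within litter 803 and −0.10 within litter 801, and −0.40 among females and −0.44 among males. The FDR ranged from 0.0150 to 0.609 over the alternatives. The call was lost without wild-type embryo 2, 3 or 4, KO embryo 1 or 3, or KO/Tg embryo 2. Its partner *Dlx4* had 8 to 26 counts per embryo and was at 0.549 to 0.653 CPM in wild-type and 0.473 to 0.599 CPM in KO embryos. At that depth its log2 fold change of −0.21 ± 0.301 (FDR = 0.789) does not show whether *Dlx4* changed as *Dlx3* did.

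*Dlx5* was at 8.01, 10.4, 10.3 and 10.1 CPM in wild-type embryos and at 7.74, 7.45, 7.39 and 7.13 CPM in KO embryos. The groups did not overlap, and the lowest wild-type embryo, of litter 801, stood apart from the other 3. The log2 fold change was −0.38 ± 0.108 and missed the threshold (FDR = 0.0750). Without wild-type embryo 1 the FDR passed it, as it did without Tg embryo 3. *Dlx6* was at 3.74, 3.70, 4.02 and 5.56 CPM in wild-type and at 3.43, 4.51, 3.60 and 2.96 CPM in KO embryos. These ranges overlapped widely, with a log2 fold change of −0.22 ± 0.157 (FDR = 0.531).

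**Figure D3:**
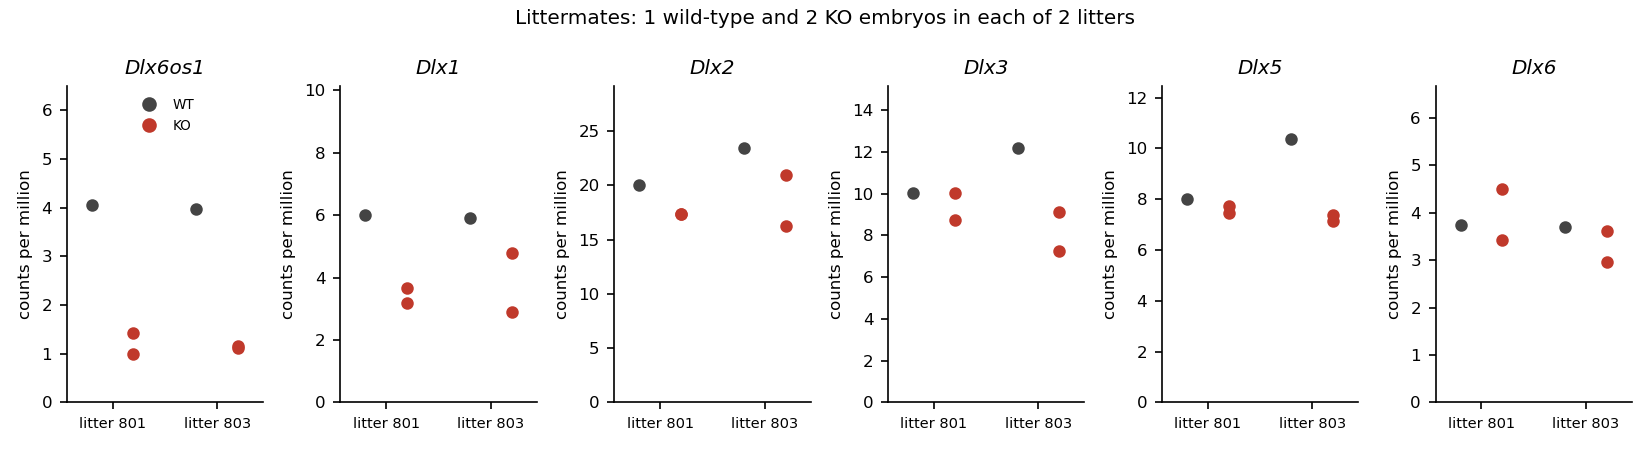
CPM of 6 genes in litters 801 and 803, which held both genotypes, with 1 wild-type (grey) and 2 KO embryos (red) each. *Dlx6os1* and *Dlx1* are clearly lower in the KO embryos of both litters, while *Dlx5* and *Dlx3* differ mainly in litter 803 and the log2 ratios of *Dlx6* are 0.08 and −0.17.

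Ratios within an embryo show whether the genes of a locus differed to the same extent. Of 5 ratios in 4 comparisons, 7 of the 20 tests gave p = 0.0286, the smallest that a two-sided exact permutation test allows for 4 embryos against 4, and their adjusted p-value was 0.0816. None of the 20 can therefore be called after adjustment. The log2 ratio of *Dlx6os1* to *Dlx6* was 0.11, 0.10, 0.31 and 0.18 in wild-type and −1.76, −1.64, −1.66 and −1.35 in KO embryos. The difference was −1.78, with SDs of 0.0974 in wild-type and 0.177 in KO embryos, and the groups did not overlap (exact permutation p = 0.0286). Against *Dlx5*, the other gene of the locus, *Dlx6os1* differed by −1.63 (exact permutation p = 0.0286). The log2 ratio of *Dlx1* to *Dlx2* went from −1.65 ± 0.263 in wild-type to −2.32 ± 0.171 in KO embryos (SD, n = 4 each; exact permutation p = 0.0286). Ratios of *Dlx5* to *Dlx6* and of *Dlx3* to *Dlx4* differed by −0.15 (exact permutation p = 0.429) and −0.19 (exact permutation p = 0.229), with overlapping groups.

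**Figure D4:**
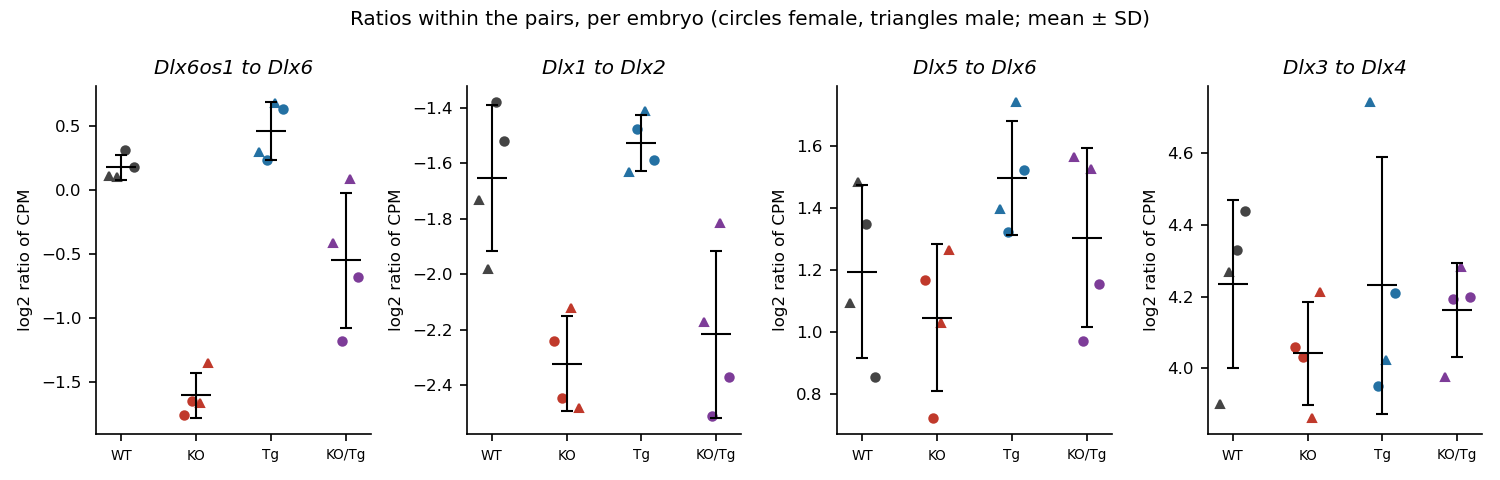
Log2 ratio of CPM within each embryo for *Dlx6os1* to *Dlx6* and for the members of the 3 pairs, by genotype, with circles for females, triangles for males and bars for the mean ± SD. The axes do not start at 0. In the first panel the KO embryos lie from −1.76 to −1.35 and the wild-type embryos from 0.10 to 0.31, while the KO/Tg embryos spread from −1.18 to 0.08.

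The second question was whether extra *Kat6b* alters the levels in embryos without KAT6A. In KO/Tg vs. KO embryos 4 of the 7 genes were upregulated, *Dlx6os1*, *Dlx1*, *Dlx2* and *Dlx5*, and none was downregulated. Over all genes, 3.39% were called higher in this comparison. The median log2 fold change of the 7 was 0.43, against 0.00 over all genes. *Kat6b*, the gene on the transgene, was at 46.2 ± 2.45 CPM in wild-type and 49.1 ± 2.03 CPM in KO embryos, and at 192.1 ± 29.7 and 197 ± 4.92 CPM in Tg and KO/Tg embryos (SD, n = 4 each). Counts of *Kat6a* over the whole gene, 199 ± 16.5 CPM in wild-type and 202 ± 15.2 CPM in KO embryos, cannot check the null allele, which lacks only some exons.

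*Dlx6os1* was at 2.64, 2.27, 3.21 and 2.92 CPM in KO/Tg embryos, between wild-type and KO embryos with no overlap with either. Over all genes 3.68% lay below wild type without overlap. The log2 fold change was 1.29 ± 0.173 vs. KO (SE; FDR = 0.000167) and held under all 27 alternatives. *Dlx6os1* remained lower than in wild-type embryos, at 57.1% of the wild-type mean, with a log2 fold change of −0.66 ± 0.155 (FDR = 0.0487). This was the 1 call among the 7 genes vs. wild type, where 0.395% of all genes were called lower. It was lost under 16 of the 27 alternatives, 14 of which left out 1 embryo, any but Tg embryos 1 and 3, although the log2 fold change stayed between −0.80 and −0.60.

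*Dlx1* was at 6.33, 3.73, 7.21 and 4.35 CPM in KO/Tg embryos. Both males were above all KO embryos, and both females fell within their range. Its log2 fold change was 0.76 ± 0.143 (FDR = 0.00373), and 5 alternatives ended the call. They were no or 1 surrogate variable, sex as a covariate, only these genotypes compared and a filter of 10 counts per embryo. Within females the log2 ratio to KO embryos was 0.24 and within males 0.82. *Dlx2* was at 28.6, 21.4, 25.5 and 22.5 CPM, all above the highest KO embryo, with a log2 fold change of 0.50 ± 0.0813 (FDR = 0.00100) that held under all 27 alternatives. *Dlx5* was at 10.47, 10.1, 8.75 and 10.4 CPM, again with no overlap, and its log2 fold change of 0.43 ± 0.110 (FDR = 0.0212) lost its call under 6 alternatives, among them without KO embryo 2 or 4 or KO/Tg embryo 1 or 4. Values of *Dlx3*, from 10.2 to 11.8 CPM, also did not overlap those of KO embryos, but the log2 fold change of 0.28 ± 0.0977 was not called (FDR = 0.0786). Nonoverlap in this direction was seen for 4 of the 7 genes and for 7.29% of all genes. *Dlx6*, from 3.02 to 5.16 CPM, gave a log2 fold change of 0.14 ± 0.161 (FDR = 0.648), and *Dlx4*, from 0.493 to 0.668 CPM, one of 0.23 ± 0.300 (FDR = 0.694).

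Vs. wild type, the other 6 genes of KO/Tg embryos were not called, and their values overlapped those of wild-type embryos. The log2 fold change was −0.23 ± 0.139 for *Dlx1* (FDR = 0.531), 0.19 ± 0.0822 for *Dlx2* (FDR = 0.331) and −0.11 ± 0.0993 for *Dlx3* (FDR = 0.696). Mean *Dlx1* in these embryos was 75.3% of the wild-type mean, mean *Dlx2* 109% and mean *Dlx5* 103%.

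In Tg vs. wild-type embryos, edgeR called none of the 7 genes, with 3 at an unadjusted p-value under 0.05, and DESeq2 and limma-voom called 0. Over all genes, 0.140% were called in either direction. *Dlx1* was at 8.10, 9.00, 10.3 and 8.60 CPM (log2 fold change 0.28 ± 0.127; FDR = 0.397). *Dlx2* was at 25.1, 25.1, 27.5 and 25.9 CPM, all of them over the wild-type maximum of 24.3 CPM, with a log2 fold change of 0.20 ± 0.0792 (FDR = 0.316). It was the 1 gene of the 7 whose values did not overlap in this comparison, as for 1.62% of all genes in this direction. *Dlx5* gave a log2 fold change of 0.25 ± 0.106 (FDR = 0.355) and *Dlx6os1*, at 5.16, 5.42, 6.35 and 5.28 CPM, one of 0.18 ± 0.137 (FDR = 0.684).

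With the transgene present, loss of *Kat6a* was compared in KO/Tg vs. Tg embryos. *Dlx6os1* was lower by a log2 fold change of −0.84 ± 0.156 (FDR = 0.00674) and *Dlx1* by −0.50 ± 0.139 (FDR = 0.0481), while 1.14% of all genes were called lower. The call of *Dlx1* was lost under 15 of 27 alternatives, among them without KO embryo 1, 2 or 3 or any 1 of the Tg and KO/Tg embryos, and that of *Dlx6os1* under none. Whether the difference with loss of *Kat6a* depended on the transgene was tested as the interaction. It was past the threshold for *Dlx6os1* alone among the 7, at 1.11 ± 0.224 on the log2 scale (FDR = 0.0395), in the direction of a smaller drop with the transgene, where 0.102% of all genes were called. This call was lost under 19 of 26 alternatives, 11 of which left out 1 embryo, any but wild-type embryo 1, KO embryo 2, Tg embryos 2 and 3 and KO/Tg embryo 1, with values from 0.97 to 1.26. For *Dlx1* the interaction was 0.48 ± 0.194 (FDR = 0.263), for *Dlx2* 0.31 ± 0.116 (FDR = 0.239) and for *Dlx3* 0.31 ± 0.139 (FDR = 0.311), so that no difference between the 2 backgrounds was shown for them.

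The groups farthest apart were Tg and KO embryos. Here 5 of the 7 genes were higher with the transgene and *Kat6a*, against 5.46% of all genes. The log2 fold change was 2.14 ± 0.159 for *Dlx6os1* (FDR = 2.16e-08), 1.26 ± 0.135 for *Dlx1* (FDR = 6.05e-06) and 0.63 ± 0.106 for *Dlx5* (FDR = 0.000643). It was 0.51 ± 0.0793 for *Dlx2* (FDR = 0.000298) and 0.37 ± 0.0951 for *Dlx3* (FDR = 0.0136). None of these 5 overlapped between the groups, as for 7.84% of all genes in this direction. Tg and KO embryos share no litter, and with litter as a block only *Dlx6os1* kept its call (FDR = 0.0415), while the other 4 lost theirs (FDR 0.532 to 0.832). These comparisons share groups of embryos, so their calls are not independent of each other.

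**Figure D5:**
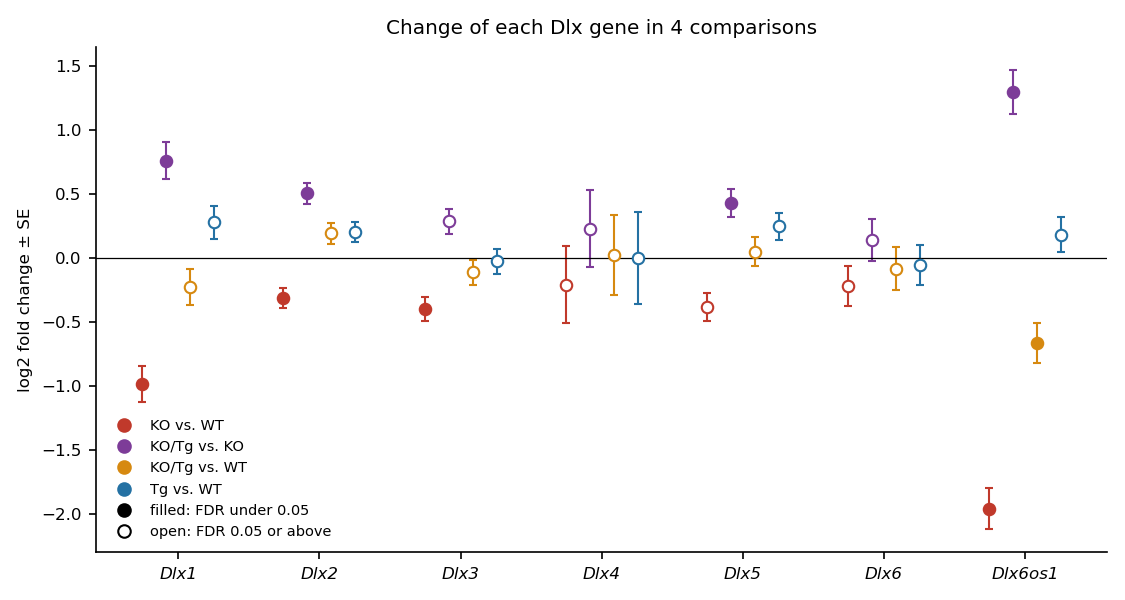
Log2 fold change ± SE of each gene from the edgeR fit in 4 comparisons, with filled points at an FDR under 0.05 and open points otherwise. The largest values belong to *Dlx6os1*, at −1.96 without KAT6A and 1.29 with the transgene added, whereas the points of *Dlx4* and *Dlx6* are all open.

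A further 3 rows bear *Dlx* names, all of noncoding RNAs antisense to a member. *Dlx1as* lies opposite *Dlx1* and was at 1.35, 0.884, 1.47 and 2.20 CPM in wild-type and at 0.830, 0.652, 0.355 and 0.564 CPM in KO embryos, with no overlap and 6 to 33 counts. Its log2 fold change was −1.18 ± 0.297 (FDR = 0.0417), lost under 20 of 27 alternatives, and 1.155 ± 0.299 in KO/Tg vs. KO embryos (FDR = 0.0232), lost under 10 of 26, among them without KO embryo 2, 3 or 4 or KO/Tg embryo 3. Both differences have the sign of those of *Dlx1*, with which it shares exon bases. *Dlx4os*, with 3 to 25 counts per embryo, gave −1.38 ± 0.462 without KAT6A (FDR = 0.140). In litter 801 its wild-type embryo lay between the 2 KO embryos. *Dlx4os* was higher in Tg than in KO embryos, by 2.11 ± 0.418 on the log2 scale (FDR = 0.00233). *Dlx6os2* had 0 to 3 counts in every embryo, at or under the floor of 3 counts, and was not compared.

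The 3 tested genes nearest to each pair on either side make 18 neighbours. In KO vs. wild-type embryos 16 were not called, and 2 integrin genes were higher, against 0.944% of all genes called in that direction. *Itga6*, 198858 bases from the *Dlx1*-*Dlx2* pair, differed by 0.17 on the log2 scale (FDR = 0.0279) and *Itga3*, 43255 bases from the *Dlx3*-*Dlx4* pair, by 0.18 (FDR = 0.0321). None was lower. The call of *Itga6* was lost under 14 and that of *Itga3* under 18 of 28 alternatives. The nearest, *Metap1d*, lies 2919 bases from the *Dlx1*-*Dlx2* pair and overlaps *Dlx1as*. Its mean was 11.2 CPM in both genotypes.

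Over the 16 embryos, log2 CPM of *Dlx1* and *Dlx2* had a Pearson r of 0.83 and *Dlx1* and *Dlx6os1* one of 0.89. The r of *Dlx5* with its partner *Dlx6* was 0.42 and that of *Dlx3* with *Dlx4* 0.52. *Dlx6* correlated weakly with every other member, at 0.12 to 0.47. These values describe embryos that share genotype and litter, and counts of *Dlx4* are low, at 8 to 26 per embryo. Those of *Dlx6* were 49 to 213 per embryo, against 18 to 154 for *Dlx6os1*. Across all tested genes the pattern closest to *Dlx6os1* was that of *Hoxb3* (r = 0.95), *Skida1* (r = 0.95) and *Cyp26b1* (r = 0.94). Mean *Hoxb3* was 74.0 CPM in wild-type, 56.2 in KO, 83.0 in Tg and 64.4 in KO/Tg embryos. For *Dlx5* the closest were *Pcgf2* (r = 0.96), the forebrain homeobox gene *Six3* (r = 0.94) and *Tpm3* (r = 0.94), and for *Dlx2* they were *Polh* (r = 0.91), *9330151L19Rik* (r = 0.89) and *Rbm39* (r = 0.89). Those of *Dlx3* were *Ercc6l* (r = 0.90), *Lrp3* (r = 0.87) and *Kdm4c* (r = 0.87).

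Genes upstream of the *Dlx* genes in the arches showed little difference in KO vs. wild-type embryos. In the list of endothelin signalling (6 genes, all tested) *Ece1*, which encodes the enzyme that activates endothelin, was higher by 0.14 ± 0.0362 (FDR = 0.0477) and 5 were not called. The list median was 0.01, against 0.00 over all genes, and 1.88% of all genes were called in either direction. The ligand *Edn1* was at 3.79 ± 0.518 CPM in wild-type and 3.85 ± 0.868 CPM in KO embryos, and its receptor *Ednra* at 39.2 and 38.3 CPM on average. Of 6 genes of BMP and FGF signalling and the *Msx* genes, edgeR called none (median −0.14).

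Among 10 genes known to be lowered in arches that lack DLX5 and DLX6, 2 were downregulated and 8 were not called, with a list median of −0.32. The share of all genes called lower in KO vs. wild-type embryos was 0.938%, with a median of 0.00 over all genes. *Foxl2*, a forkhead factor, fell by 0.48 on the log2 scale (SE 0.110; FDR = 0.0272), from 8.30 ± 0.873 to 6.02 ± 0.695 CPM. *Cited1*, a transcriptional cofactor, fell by 0.40 (SE 0.0983; FDR = 0.0392), from 13.7 ± 2.06 to 10.3 ± 1.42 CPM. The summed level of the 10 genes was 188 to 199.6 CPM in wild-type, 135 to 172 CPM in KO, 187 to 211 CPM in Tg and 202 to 211 CPM in KO/Tg embryos. In KO/Tg vs. KO embryos the upregulated genes of this list included a pair chosen for mention after their values were seen. They were *Hand1*, a bHLH factor of heart and arches, higher by 1.16 ± 0.228 (FDR = 0.0151), and *Rgs5*, higher by 0.74 ± 0.186 (FDR = 0.0262). Neither was called in KO vs. wild-type embryos, where *Hand1* differed by −0.76 (FDR = 0.142) and *Rgs5* by −0.09 (FDR = 0.869). Mean *Hand1* was 21.4 CPM in wild-type, 12.3 in KO and 28.7 in KO/Tg embryos, and mean *Rgs5* 6.80, 6.42 and 10.7 CPM. In KO/Tg vs. KO embryos *Msx1* and *Msx2*, homeobox genes downstream of BMP, were also upregulated, by 0.23 ± 0.0687 (FDR = 0.0449) and 0.41 ± 0.0929 (FDR = 0.0123). Of 27 alternatives, 15 ended the call of *Msx1*, 8 that of *Rgs5*, 4 that of *Msx2* and 2 that of *Hand1*. Those that left out 1 embryo were 7 for *Msx1*, namely wild-type embryo 3, KO embryo 1, 3 or 4 or KO/Tg embryo 1, 3 or 4. For *Rgs5* they left out KO embryo 2 or KO/Tg embryo 2 or 4, and for *Msx2* KO/Tg embryo 1.

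In the forebrain list of 10 genes, 2 were downregulated in KO vs. wild-type embryos and 8 were not called (median −0.27). Of all genes 0.938% were called lower (median 0.00). *Gsx1*, a homeobox gene of ventral forebrain progenitors, fell by 1.00 (SE 0.251; FDR = 0.0405), from 1.26 ± 0.337 to 0.610 ± 0.290 CPM, and its relative *Gsx2* lay just outside the threshold (FDR = 0.0502). *Six3* fell by 0.34 (SE 0.0774; FDR = 0.0269), from 15.6 ± 0.739 to 12.4 ± 0.164 CPM, and was at 16.2 ± 1.02 CPM in KO/Tg embryos. *Nkx2-1*, of the same region, was at 11.8 and 11.9 CPM on average. The calls of *Ece1*, *Cited1*, *Foxl2*, *Gsx1* and *Six3* vs. wild type were each lost under 13 to 21 of the 27 or 28 alternatives.

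Marker genes of the tissues that use *Dlx* genes were counted beside these results. In KO vs. wild-type embryos 0.938% of all genes were called lower, with a median of 0.00. Of 10 neural crest markers *Foxd3* alone was downregulated in KO vs. wild-type embryos, by 0.46 (SE 0.113; FDR = 0.0392), and 9 were not called (median −0.16). The summed level of the 10 was 677.2 to 775 CPM in wild-type and 638 to 677.1 CPM in KO embryos, 718 to 759 CPM in Tg and 648 to 713 CPM in KO/Tg embryos. Among 8 placode and otic markers, *Oc90*, an otoconial protein of the otic vesicle, fell by 1.41 (SE 0.256; FDR = 0.00482) and *Pax2* by 0.40 (SE 0.103; FDR = 0.0440). The other 6 were not called (list median −0.13). *Oc90* was at 0.694 ± 0.410 CPM in KO/Tg embryos, against 2.65 ± 0.903 CPM in wild-type and 0.923 ± 0.135 CPM in KO embryos. Of 10 markers of surface ectoderm and limb ridge, *Sp9*, a zinc finger factor of the ridge, fell by 1.08 (SE 0.206; FDR = 0.00780) from 3.45 to 1.64 CPM, and was at 3.26 CPM in KO/Tg embryos. The other 9 were not called in KO vs. wild-type embryos, and the median of this list was 0.04. The calls of *Sp9* and *Oc90* were lost under 1 and 3 alternatives, those of *Foxd3* and *Pax2* under 19 and 23. The sum of the surface ectoderm and limb ridge list was 228 to 255 CPM in wild-type and 232 to 265 CPM in KO embryos. It was 218 to 277 CPM in Tg and 270.3 to 309 CPM in KO/Tg embryos, and these 2 ranges overlapped. Every KO/Tg embryo lay above all wild-type and all KO embryos. In KO/Tg vs. wild-type embryos the median of this list was 0.28, against −0.0031 over all genes.

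Tissue outside the embryo was checked because *Dlx3* is used in the placenta. Of 8 trophoblast genes 2 passed the filter and neither was called, *Tpbpa* had 0 counts in every embryo, and *Prl3d1*, *Prl2c2* and *Gcm1* had at most 3 counts in any. The summed level of the 8 was 1.83 to 3.31 CPM over the 16 embryos. Genes of visceral yolk sac and liver bud varied far more, with 5 of 6 tested and none called. Their sum was 13.4 to 54.3 CPM in wild-type, 8.57 to 15.4 CPM in KO, 3.63 to 48.7 CPM in Tg and 38.8 to 50.002 CPM in KO/Tg embryos. The part of neural crest, ectoderm and yolk sac content in the *Dlx* differences was not tested.

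Libraries held 14407277 to 45665680 counts on genes. The first surrogate variable separated the sexes, and long genes were low in Tg embryo 1, with a median log2 deviation of −0.27 from its group over 753 genes, against at most 0.12 in size in the other 15 libraries. Without this embryo the same 4 *Dlx* genes were called in KO vs. wild-type embryos and the same 4 in KO/Tg vs. KO embryos, while *Dlx1* lost its call vs. Tg embryos and *Dlx6os1* that of the interaction.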

How the data were processed

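RNA-sequencing was done on 16 whole E9.5 embryos with a TruSeq kit that does not mark strand. The authors aligned reads to mm39 with Rsubread and deposited counts, raw whole numbers of reads per gene, for 26411 genes with their lengths. bcl2fastq and featureCounts are named in the submitters' processing notes. The annotation, the strand setting and the handling of shared reads are not given in the sources used here.

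Genotype, litter and sex came from the labels. Genes were kept by edgeR's filterByExpr (minimum count 10, minimum total 15), which left 15679 genes with 99.95% to 99.96% of the counts. The fit, in edgeR 4.0.16 under R 4.3.3, had TMM factors of 0.985 to 1.02, 2 surrogate variables from sva 3.50.0 and robust quasi-likelihood dispersions over all 16 embryos. P-values were adjusted over all tested genes (FDR), with a threshold of 0.05. The edgeR, limma-voom and DESeq2 tests were checked on simulated data for KO vs. wild-type embryos. That simulation had no surrogate variables and no differences by sex or litter, so it did not check the full fit. CPM and RPKM used TMM-scaled library sizes, and a count of 0.5 was added before log2 ratios. These were compared by two-sided exact permutation tests. DESeq2 1.42.0 and limma 3.58.1 served as alternatives, beside other filters, scalings, covariates and leaving out each embryo.

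No pair of libraries of the same genotype was alike within sampling noise (chi-square per degree of freedom 1.83 to 15.8). Counting error limits genes under about 10 counts, and the total counts per embryo were 14407277 to 45665680. Same-numbered embryos of different genotypes were not paired (correlations of their deviations −0.24 to 0.21). Gene positions came from GENCODE for GRCm39, where 25282 symbols matched 1 gene. Promoter windows came from RefSeq for GRCm38.p6.

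The 7 genes and all lists were chosen with earlier results of these data known. Besides them the named genes were every row with a *Dlx* symbol, list members called in KO vs. wild-type embryos, the 3 nearest tested genes on each side of a pair, the 3 genes most correlated with *Dlx2*, *Dlx3*, *Dlx5* and *Dlx6os1*, and *Kat6a* and *Kat6b*. Genes outside this rule were named after their values were seen: *Edn1*, *Ednra*, *Gsx2*, *Nkx2-1*, *Hand1*, *Rgs5*, *Msx1*, *Msx2* and the trophoblast genes. The values of 1 list member are not reported here.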

Additional observations from a re-analysis of the deposited data

Results flagged for a closer look

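The interaction of *Dlx6os1*, the difference between the effect of losing *Kat6a* with and without the transgene, was 1.11 on the log2 scale (FDR = 0.0395).

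In 2 of 36 sets of 4 embryos 1 embryo stood apart by Dixon's test, which chance flags in about 1 of 20 sets. *Dlx5* was at 8.01 CPM in wild-type embryo 1, the lowest of its group. *Dlx6* was at 5.56 CPM in wild-type embryo 4, the highest of its group and the shallowest library, with 14407277 counts.

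Females and males differed in opposite directions with no overlap in 2 cases, and the difference between the sexes was not tested. Each genotype had only 2 embryos of a sex, and all 7 genes were searched over several comparisons. How many such cases arise by chance was not computed. For *Dlx1* in KO/Tg vs. wild-type embryos, the log2 ratio of mean CPM was −1.06 in females and 0.18 in males. In wild-type embryos sex goes with litter, and the males were littermates of KO embryos while the females were littermates of Tg embryos. For *Dlx6* in KO/Tg vs. Tg embryos, it was 0.30 in females and −0.32 in males.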

How the results depend on the processing

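In KO vs. wild-type embryos 4 of the 7 genes were called, against 2, *Dlx1* and *Dlx6os1*, with no or 1 surrogate variable, limma-voom, sex as a covariate, no filter, a filter of 10 counts per embryo, the replicate number as a block, only the genotypes compared or an FDR under 0.01. It was 1 with litter as a block and 2 to 5 when 1 embryo was left out, and 18 to 432 of all genes were called in place of 295. In KO/Tg vs. wild-type embryos the 1 call became 0 with only these genotypes or an FDR under 0.01, and 0 to 1 without 1 embryo. The 4 calls vs. KO embryos became 2 with a filter of 10 counts per embryo. They became 3, without *Dlx1*, with no or 1 surrogate variable, sex as a covariate or only these genotypes. Without 1 embryo they were 3 to 5. The 2 calls vs. Tg embryos became 1 with DESeq2's size factors, a filter of 10 counts per embryo, only these genotypes or an FDR under 0.01, and 1 to 2 without 1 embryo. The 5 calls in Tg vs. KO embryos became 3 with a filter of 10 counts per embryo and 1 with litter as a block. The 1 interaction became 0 with no or 1 surrogate variable, limma-voom, sex as a covariate, no filter, a filter of 10 counts per embryo, the replicate number as a block or an FDR under 0.01, and 0 to 1 without 1 embryo. None of the 7 was called in Tg vs. wild-type embryos under any of the 28 alternatives.

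The log2 fold change of *Dlx6* reversed with a filter of 10 counts per embryo, to 0.0315 in KO vs. wild-type embryos and to −0.22 in KO/Tg vs. KO embryos. The cause was not tested. No other fitted log2 fold change of a named gene that was recomputed under the alternatives changed sign. Unadjusted ratios within a sex or litter are not among these, and some differed in sign from an uncalled fitted value, such as −0.07 for *Dlx2* in KO/Tg vs. wild-type females and −0.26 for *Dlx6os1* in Tg vs. wild-type embryos of litter 2598. The *Dlx6os1* to *Dlx6* difference in KO vs. wild-type embryos was −1.78 between same-numbered embryos as a replicate block (exact permutation p = 0.125, the smallest that 4 pairs allow), −1.95 within females, −1.61 within males, −1.60 within litter 803 and −1.86 to −1.73 without 1 embryo. Levels in wild-type embryos moved by less than 1 SD with total counts as library sizes, and other gene lengths were not tried. Same-numbered embryos share only a number, and the block changed the counts of calls as given above.

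Depth limits *Dlx4*, *Dlx4os* and *Dlx1as*, with 3 to 47 counts per embryo, and *Dlx6os2*, with at most 3.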
